A study of Arvicanthis niloticus with 28 samples.

Results

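The hypoxia-inducible factors, the enzymes that mark them for destruction and 3 of their target genes were followed as messenger RNA in the isolated retinal vessels of Nile rats. The 10 members (Hif1a, Epas1, Arnt, Egln1, Egln2, Egln3, Vhl, Bnip3, Adm and Ddit4) were given by symbol, and all 10 were found among the 18970 genes of the deposited tables and passed the filter on low counts. The rule that picks them uses no measured value, though the members were chosen with earlier results of these data known. The Nile rat (Arvicanthis niloticus) is a day-active rodent that can become diabetic on an energy-rich diet. The 28 rats were wild type and untreated, each gave 1 library of whole retinal vasculature, and the labels record sex, random blood glucose and the density of acellular capillaries, empty basement membrane tubes that remain after the cells of a capillary are lost. Age and diet are not in the labels, so they could not be set beside the results.

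The pre-dropout group held 4 rats (T353M, T389M, T391M and T407M), all male, with 17.1 to 17.9 acellular capillaries per mm2 and blood glucose of 57.4, 443, 278 and 117 mg/dL. The normal group held 24 rats, 8 male and 16 female, with 5.90 to 14.5 acellular capillaries per mm2 and a median glucose of 67.4 mg/dL (52.0 to 422). Since no pre-dropout rat was female, sex and density group cannot be fully told apart. Vessels were freed from the retina by osmotic lysis in cold water, a warm DNase step and washing, so transcript levels are those after this handling, whose part in the levels was not tested.

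Hif1a and Epas1 (which encodes HIF-2α) are the oxygen-regulated subunits of the hypoxia-inducible factors, and Arnt encodes the constant partner (HIF-1β) with which they bind DNA. In oxygenated cells the prolyl hydroxylases encoded by Egln1 (PHD2), Egln2 (PHD1) and Egln3 (PHD3) modify the oxygen-regulated subunits, which the Vhl protein then recognises for ubiquitination. Most of this control acts on the proteins, which were not measured here. Among the targets, Bnip3 encodes a mitochondrial protein of mitophagy, Adm the vasodilator peptide adrenomedullin, and Ddit4 (REDD1) an inhibitor of mTORC1. Egln1 and Egln3 are themselves known targets of the factors, and Epas1 is known as the form prominent in endothelium.

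Library totals ran between 153111 and 10029207 counts, and 7502 to 16139 genes had a count. Only 2 libraries were under 1000000 counts (T410F and T448M, both normal). A count of 0 allowed up to 3 counts, 0.299 to 19.6 CPM (counts per 1000000) depending on the library, by counting error alone. Endothelial markers were strong in all rats: Cldn5, a tight junction claudin, was at 16620 to 49970 TPM (transcripts per 1000000, a level per length) in pre-dropout rats and 9467 to 45276 TPM in normal rats. Pericyte RNA was also present, with Rgs5 at 2019 to 13794 TPM in pre-dropout rats and 2136 to 13729 TPM in normal rats. Rod RNA remained in every library, and arrestin (Sag) was at 14.3 to 111 TPM in pre-dropout rats and 3.36 to 880 TPM in normal rats.

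By TPM the members fell into an abundant and a scarce set. Bnip3 had the highest mean level, 469 TPM (SD 179, n = 28), followed by Ddit4 with 304 TPM (SD 120), Egln1 with 288 TPM (SD 117) and Epas1 with 281 TPM (SD 115). These 4 lay above 97.5% or more of all genes in mean TPM. Hif1a followed with 44.0 TPM (SD 17.98) and Arnt with 31.7 TPM (SD 14.2). Egln3 (27.9 TPM, SD 38.5), Egln2 (24.9 TPM, SD 17.6), Vhl (21.2 TPM, SD 19.5) and Adm (13.7 TPM, SD 14.9) were the scarcest.

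Neighbours in this order were compared within rats on log2(TPM + 1) by a paired, two-sided permutation test with 100000 resamples, adjusted over the 9 neighbour pairs. Bnip3 exceeded Ddit4 in 24 of 28 rats (mean log2 difference 0.62, adjusted permutation p = 9.0e-05). Epas1 exceeded Hif1a in 28 of 28 rats, by a mean log2 difference of 2.67 (permutation p = 1e-05, the smallest these resamples can give). Thus the HIF-2α transcript was the more abundant one per length in every library. Hif1a exceeded Arnt in 18 of 28 rats (0.48, adjusted permutation p = 0.0246), and Arnt exceeded Egln3 in 18 of 28 rats (1.76, adjusted permutation p = 0.00555). The neighbours among Ddit4, Egln1 and Epas1 did not differ beyond their spread, nor did those among Egln3, Egln2, Vhl and Adm (adjusted permutation p of 0.181 to 0.609). Ranked by medians, Epas1 came second and Egln3 ninth, and the step from Arnt to its next neighbour, Egln2, was no longer past the limit (adjusted permutation p = 0.152).

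**Figure D1:**
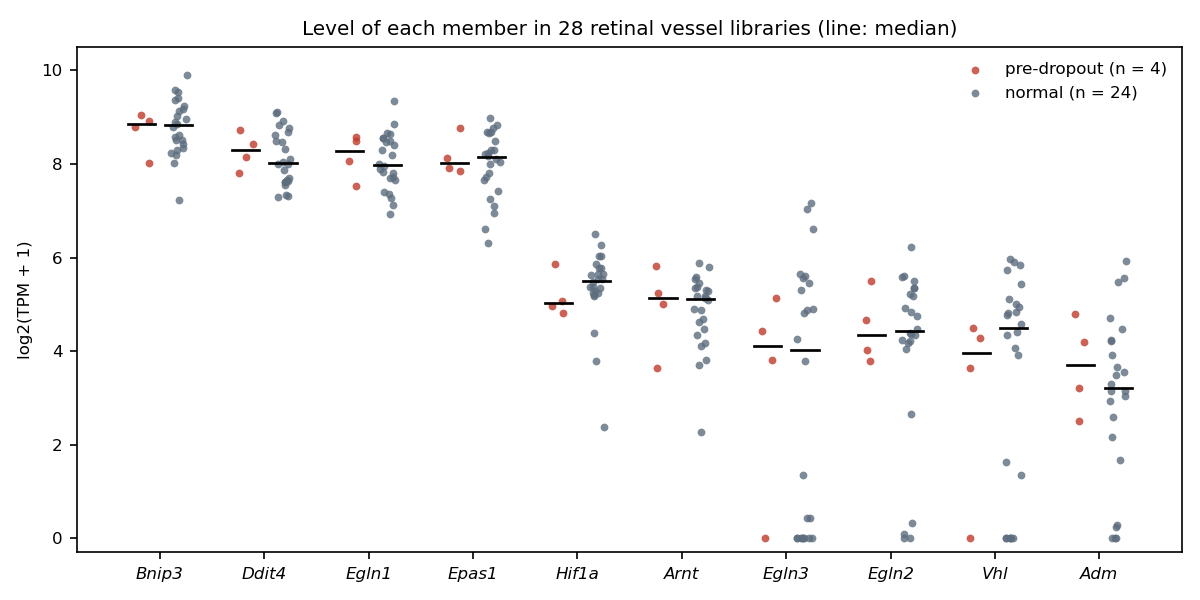
Level of the 10 members in each library, as log2(TPM + 1), with the 4 pre-dropout rats in red to the left of the 24 normal rats in grey and black lines at the group medians. Bnip3, Ddit4, Egln1 and Epas1 lie highest, the scarce members Egln3, Egln2, Vhl and Adm reach 0 in some rats, and every pre-dropout rat lies within the range of the normal rats.

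A similar level per length rested on very different numbers of counts. Epas1 had 362 to 28356 counts per library, whereas Ddit4, at a similar TPM, had 20 to 1058. The table implies an effective length for Ddit4 of 0.0394 of that of Epas1, for Egln3 of 0.0510 and for Egln1 of 0.0622. The high TPM of Ddit4 and Egln1 thus rests on fewer counts than that of Epas1, and TPM and CPM rank the members differently. By mean CPM Hif1a (193) lay above Egln1 (121) and Ddit4 (81.2), so their place in the abundant set holds for TPM only. Hif1a, Epas1, Arnt, Egln1, Bnip3 and Ddit4 had counts in all 28 libraries, while Egln3 was at 0 in 9, Vhl in 7, Adm in 3 and Egln2 in 2.

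Zeros moved with the number of genes a library held. The 13 libraries with 1 or more members at 0 had 7502 to 12661 genes with a count (median 10118), against 10166 to 16139 (median 13071) in the 15 libraries with none. Depth in counts did not always go with this: T424M had the largest total, yet it held 10166 genes and 1 count of Egln2 beside 2990 counts of Hif1a. The part of library complexity in the scarce members' spread was not tested.

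The first comparison asked whether the pathway differs in rats with more acellular capillaries. No member was called between pre-dropout and normal rats (edgeR quasi-likelihood F test, adjusted p under 0.05 and more than 2-fold; 0 of 13800 genes were called, percent called 0). At an unadjusted p under 0.05 there were 394 genes and no member, and DESeq2 called 5 genes and limma 0, no member among them. For every member all 4 pre-dropout rats lay within the range of the 24 normal rats. The libraries come from whole vessel preparations, in which fewer cells of a type and less RNA per cell cannot be told apart. Among cell type markers, none called, 8 of 9 endothelial estimates were above 0 (median 0.18) and 7 of 8 pericyte estimates below (median -0.43). Rod markers had 10 of 11 below 0 (median -0.83) and Müller glia and astrocyte markers 6 of 9 (median -0.14), beside -0.13 over all genes. The part of these cell types in the members' estimates was not tested.

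Hif1a was at 57.4, 27.1, 32.7 and 30.4 TPM in pre-dropout rats T353M, T389M, T391M and T407M, against 4.18 to 90.3 TPM (median 44.6) in normal rats. Only 1 of the 4, T353M, lay above the normal median. The log2 fold change was -0.30 (SE 0.39, 95% interval -1.10 to 0.49, adjusted p = 1).

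Epas1 was at 437, 278, 229 and 242 TPM in pre-dropout rats in the same order, against 78.9 to 505 TPM (median 281) in normal rats. Here too T353M was the highest of the 4. The log2 fold change was 0.06 (SE 0.36, 95% interval -0.68 to 0.79, adjusted p = 1).

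Arnt was at 55.7, 31.3, 37.0 and 11.5 TPM in pre-dropout rats, against 3.82 to 57.9 TPM (median 33.8) in normal rats. The pre-dropout values spanned nearly the whole normal range, with a log2 fold change of 0.11 (SE 0.43, -0.77 to 0.98, adjusted p = 1).

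Among the prolyl hydroxylases, Egln1 was at 361, 381, 185 and 268 TPM in pre-dropout rats, against 122 to 648 TPM (median 252) in normal rats. Its log2 fold change was 0.09 (SE 0.36, -0.65 to 0.82, adjusted p = 1). Egln2 was at 12.8, 44.5, 24.4 and 15.3 TPM in pre-dropout rats, against 0 to 74.0 TPM (median 20.5) in normal rats. The interval for Egln2 (log2 fold change 0.03, SE 0.89, -1.76 to 1.82) reached past 2-fold in both directions. Egln3 was at 20.6, 34.4, 13.03 and 0 TPM in pre-dropout rats, against 0 to 143 TPM (median 15.5) in normal rats. Its estimate of -0.84 (SE 1.61, -4.09 to 2.42) was the least certain of the 10, and T407M had no count of it, which allows up to 1.12 CPM.

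Vhl, the substrate receptor of the ubiquitin ligase, was at 11.5, 18.4, 21.5 and 0 TPM in pre-dropout rats, against 0 to 61.8 TPM (median 21.5) in normal rats. The log2 fold change was -0.74 (SE 1.39, -3.54 to 2.06, adjusted p = 1), with an interval that reached past 2-fold in both directions.

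Of the targets, Bnip3 was at 531, 484, 440 and 258 TPM in pre-dropout rats, against 149 to 952 TPM (median 453) in normal rats. Its log2 fold change was -0.15 (SE 0.35, -0.86 to 0.56, adjusted p = 1), the smallest error among the members. Ddit4 was at 421, 342, 284 and 224 TPM in pre-dropout rats, against 157 to 555 TPM (median 260) in normal rats. Its log2 fold change was 0.07 (SE 0.39, -0.72 to 0.85). Adm was at 8.31, 17.3, 26.8 and 4.68 TPM in pre-dropout rats, against 0 to 59.6 TPM (median 8.35) in normal rats, and its interval ran between -2.31 and 2.45 around a log2 fold change of 0.07 (SE 1.18).

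Because the pre-dropout rats were all male, the same comparison was made with sex as a covariate. Epas1, Arnt and Egln1 then had log2 fold changes of -0.25, -0.26 and -0.19, opposite in sign to the estimates without the covariate, and -0.27, -0.27 and -0.21 when 4 pre-dropout males were set against the 8 normal males. The estimate of Hif1a was -0.64 (SE 0.43, -1.52 to 0.23) with the covariate and -0.68 within males, and that of Egln2 was 0.87 (SE 0.97, -1.08 to 2.82) and 0.92. No call was made in either fit. The bounds also moved: without the covariate the intervals of 5 members (Epas1, Arnt, Egln1, Bnip3 and Ddit4) lay inside 2-fold either way, with it none of the 10 did, and within males only that of Epas1 did (-0.92 to 0.38). Without the covariate 6 of the 10 members were above and 4 below 0 (median 0.04, beside -0.13 over all genes), whereas with it 3 were above and 7 below (median -0.25, beside -0.02), so the direction of the members as a group depended on this choice.

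The members differed widely in how firmly these statements hold. The 6 members with counts in all libraries had a biological coefficient of variation of 0.49 to 0.58, and only 5.12% to 12.3% of genes varied less. Egln2 stood at 1.08, Adm at 1.39, Vhl at 1.55 and Egln3 at 1.84, the last above 72.3% of genes.

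**Figure D2:**
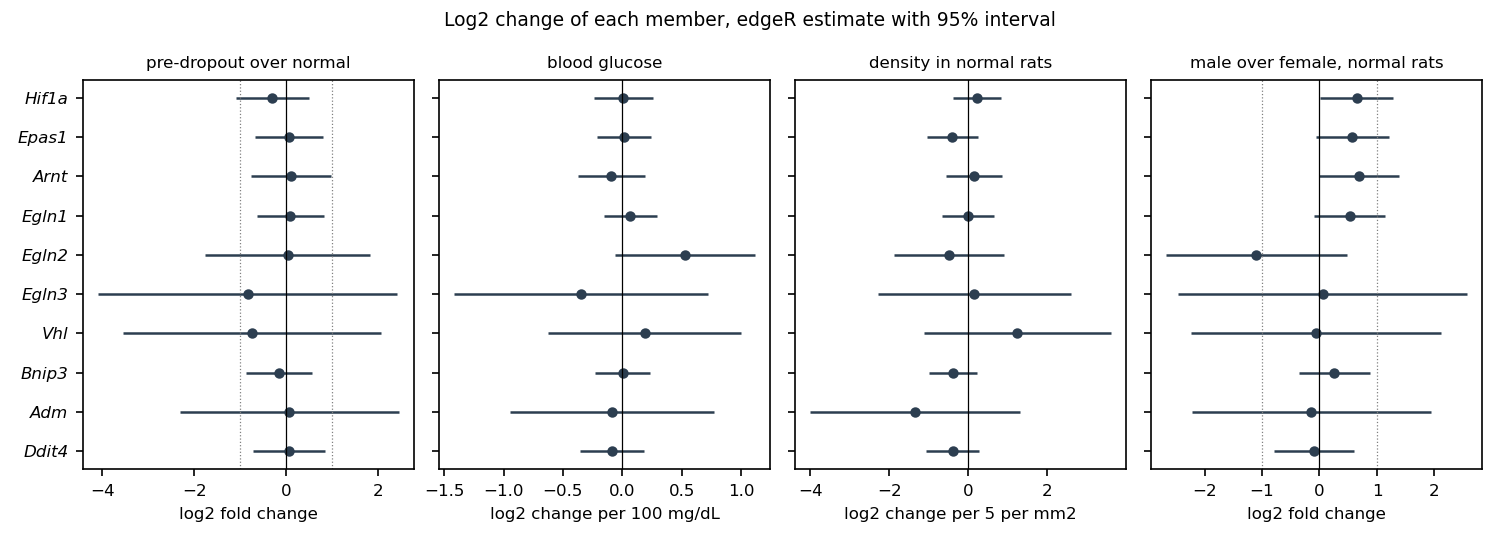
Log2 change of each member (point) with its 95% interval (line) in 4 edgeR comparisons, for pre-dropout over normal rats, per 100 mg/dL of blood glucose, per 5 acellular capillaries per mm2 in normal rats and for male over female normal rats; dotted lines mark 2-fold in the outer panels. Intervals are narrower for Hif1a, Epas1, Arnt, Egln1, Bnip3 and Ddit4 than for Egln2, Egln3, Vhl and Adm, and only that of Hif1a between the sexes leaves out 0.

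Blood glucose was then taken as a continuous measure over the 28 rats, with sex as a covariate. No member was called (0 of 13800 genes, percent called 0), and of 525 genes at an unadjusted edgeR p under 0.05 none was a member. DESeq2 called 22 genes and limma 0, again no member. Only 5 rats were above 200 mg/dL (T389M, T391M, T370M, T392F and T446M), so the slopes rest on few animals. Along glucose 7 of 9 endothelial markers had slopes above 0 (median 0.04) and 8 of 8 pericyte markers below (median -0.21). Rod markers had 11 of 11 slopes above 0 (median 0.27), beside 0.01 over all genes. No marker of these lists was called, and their part in the members' slopes was not tested.

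Per 100 mg/dL the log2 change of Epas1 was 0.01 (SE 0.11, 95% interval -0.22 to 0.24) and that of Hif1a 0.01 (SE 0.12, -0.24 to 0.26). Both slopes were thus close to 0 per 100 mg/dL. Glucose ran between 52.0 and 443 mg/dL, so the intervals allow larger changes over its whole range. Arnt had a slope of -0.09 (SE 0.14, -0.37 to 0.19). Epas1 was at 278, 229, 223, 359 and 300 TPM in the 5 hyperglycemic rats in the order given, all inside the 78.9 to 505 TPM (median 274) of the 23 other rats. Hif1a was at 27.1, 32.7, 90.3, 54.0 and 49.6 TPM in these 5, against 4.18 to 75.7 TPM (median 40.7) in the others. The highest Hif1a level of the series thus belonged to a hyperglycemic rat, T370M, and the lowest in the hyperglycemic rats to T389M, which had the highest glucose. T370M also had the highest rod marker level of the series, a mean log2 CPM of 7.88. The part of this in its Hif1a level was not tested.

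Of the hydroxylases, Egln2 had a slope of 0.53 per 100 mg/dL (SE 0.29, -0.06 to 1.12, p = 0.0778 before and 1 after adjustment, edgeR), and 0.25 without the sex covariate. With DESeq2 and limma, 770 and 429 of 13800 genes had an unadjusted p under 0.05. Egln2 was among both, at 0.54 (DESeq2 p = 0.0428) and 0.76 (limma p = 0.00407), neither past the limit after adjustment. It was at 44.5, 24.4, 16.99, 39.8 and 21.2 TPM in the 5 hyperglycemic rats, against 0 to 74.0 TPM (median 19.7) in the 23 others. All 4 libraries with at most 3 counts of Egln2 (T424M, T425M, T447M and T448M) were from normal males below 200 mg/dL. Egln1 had a slope of 0.07 (SE 0.11) and Egln3 of -0.35 (SE 0.53). The slope of Egln3 was -1.29 (SE 0.85) without T389M and -1.63 (SE 0.999) in normal rats only.

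Vhl had a count in each of the 5 hyperglycemic rats (18.4 to 33.9 TPM), against 0 to 61.8 TPM in the 23 others, 7 of which were at 0. Its slope was 0.19 (SE 0.40, adjusted p = 1). Bnip3 had a slope of 0.00 (SE 0.11, -0.23 to 0.23), and Adm one of -0.09 (SE 0.42). Ddit4, whose transcript is known to respond to stress in many cell types, was at 342, 284, 199, 194 and 158 TPM in the 5 hyperglycemic rats, against 157 to 555 TPM (median 273) in the others. The slope of Ddit4 was -0.09 (SE 0.13, -0.36 to 0.18, adjusted p = 1).

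**Figure D3:**
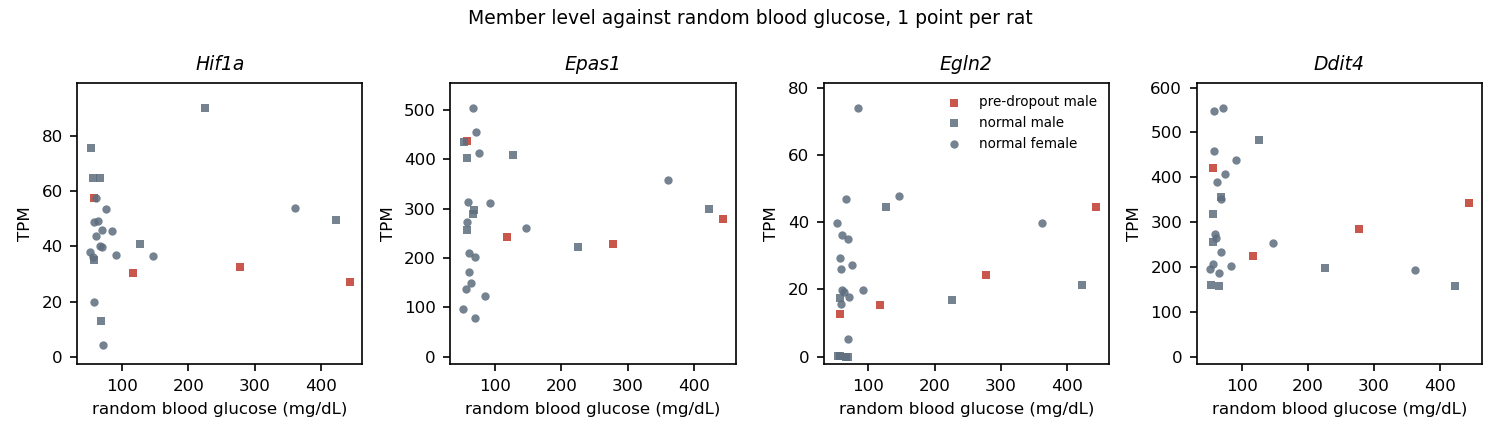
Level in TPM of Hif1a, Epas1, Egln2 and Ddit4 against random blood glucose in mg/dL, with 1 point per rat, pre-dropout rats in red and squares for males. The 5 rats above 200 mg/dL lie inside the range of the others for Epas1, Egln2 and Ddit4, and T370M has the highest Hif1a, 90.3 TPM.

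Within the 24 normal rats density itself varied, and its slope was fitted with sex as a covariate. No member was called (0 of 13677 genes, percent called 0), with 153 genes and no member at an unadjusted edgeR p under 0.05 and 0 genes called by DESeq2 or limma. Per 5 acellular capillaries per mm2 the log2 change was -0.40 for Epas1 (SE 0.32), -0.40 for Bnip3 (SE 0.30) and -0.40 for Ddit4 (SE 0.33), each with an interval that held 0. The slope of Epas1 rested on few rats, with -0.09 without T398F and T370M, whose density is most distant from the median, and -0.27 without T420F, while Bnip3 was at -0.25 and -0.35 and Ddit4 at -0.48 and -0.28 in these fits. Endothelial and pericyte marker genes lay the same way, 8 of 9 below 0 (median -0.28) and 8 of 8 below 0 (median -0.29). Rod markers lay the other way, 11 of 11 above 0 with a median of 1.27, beside 0.09 over all genes. The part of these cell types in the members' slopes was not tested. Hif1a had a slope of 0.22 (SE 0.30), Arnt of 0.14 (SE 0.35) and Egln1 of -0.01 (SE 0.32). The scarce members gave slopes with larger errors, as Vhl with 1.24 (SE 1.17) and Adm with -1.35 (SE 1.31). With limma Vhl had a slope of 2.48 (SE 0.79, limma p = 0.00412 before and 0.994 after adjustment). In that fit 384 of 13677 genes had an unadjusted p under 0.05.

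Male and female rats were compared within the normal group. No member was called, and 3 of 12162 genes were (percent called 0.0247), the Y-linked Ddx3y, Eif2s3y and Kdm5d, all higher in males and named here because they were the only ones. Hif1a averaged 54.3 ± 24.7 TPM in males (SD, n = 8) and 40.6 ± 13.3 TPM in females (SD, n = 16), a log2 fold change of 0.65 (SE 0.31). Its edgeR p was 0.0450 before and 0.995 after adjustment. Both oxygen-regulated subunits and their partner had positive estimates, with 0.57 for Epas1 (SE 0.31) and 0.68 for Arnt (SE 0.34). Egln1 had 0.53 (SE 0.30) and Egln2 -1.10 (SE 0.77). Egln2 averaged 12.6 ± 15.9 TPM in males (SD, n = 8) and 31.2 ± 16.5 TPM in females (SD, n = 16), and 4 of 8 males but 0 of 16 females had at most 3 counts of it. Of the pre-dropout males 0 had so few. Those 4 libraries held 7502 to 10166 genes with a count. The females in this range, T392F, T399F, T410F and T420F, had 95, 81, 5 and 188 counts of Egln2. T410F was the smallest library, with 153111 counts in total. The part of library complexity was not tested. None of these differences passed the adjustment, and 533 of all genes had an unadjusted p under 0.05. All 9 endothelial markers also had positive estimates (median 0.35), as had 8 of 8 pericyte markers (median 0.51) and 5 of 5 smooth muscle markers (median 0.45). Rod markers had 6 of 11 above 0 (median 0.04) and Müller glia and astrocyte markers 4 of 9 (median -0.11), beside -0.04 over all genes. The part of these cell types was not tested.

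The members varied among rats in part together. Of the 45 pairs of members, 1 passed an adjusted p of 0.05 over the pairs in log2 CPM over the 28 rats, Epas1 with Bnip3. Their Spearman's rho was 0.71 (permutation p = 5.0e-05, adjusted 0.00225) and Pearson's r 0.60 (permutation p = 0.00071, adjusted 0.0319). Without T398F and T401F, the 2 rats farthest from the median of Epas1, r was 0.58, and in the 24 normal rats alone rho was 0.70. Epas1 with Egln1 (rho 0.51, r 0.53, r 0.54 without those 2 rats, adjusted permutation p of rho = 0.0957) and Bnip3 with Ddit4 (rho 0.53, r 0.55, adjusted permutation p of rho = 0.0957) missed the limit. Bnip3 with Ddit4 had an r of 0.44 without T447M and T414F.

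Hif1a with Epas1, the pair of oxygen-regulated subunits, was far from the limit (rho 0.17, r -0.04, adjusted permutation p of rho = 0.812). Its r was 0.33 without T420F and T448M, the rats farthest from its median. For Hif1a with Arnt, the subunits of the HIF-1 dimer, rho was 0.11 and r 0.23, with an r of 0.12 without the same 2 rats (adjusted permutation p of rho = 0.812). No pair that held Hif1a or Arnt passed the limit.

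Epas1, Bnip3 and Egln1 varied with the levels of cell type markers among the libraries. Each member was set against the mean log2 CPM of 6 marker lists and against log10 of the total counts, 70 relations. Of these, 11 passed an adjusted p of 0.05 by rho (unadjusted permutation p of 1e-05 to 0.00155) and 10 of the 11 also by r (adjusted permutation p of 0.0007 to 0.0314). The same relations were not computed over all genes. Whether the members follow the markers more closely than other genes do is therefore not known. Epas1 followed the 9 endothelial markers (rho 0.79, r 0.83, permutation p = 1e-05 for both, the smallest possible, adjusted 0.00035 for rho; r 0.77 without the 2 rats farthest from the median marker level), and rho was 0.83 in the 24 normal rats alone. It also followed the 8 pericyte markers (rho 0.76, r 0.70, r 0.66 without the 2 farthest rats, adjusted permutation p of rho = 0.00035) and ran against the rod markers (rho -0.61, r -0.57, r -0.65 without the 2 farthest rats, adjusted permutation p of rho = 0.00709).

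Bnip3 showed the same signs, with the endothelial markers at rho 0.62 (r 0.53, r 0.49 without the 2 farthest rats, adjusted permutation p of rho = 0.00709) and the pericyte markers at rho 0.59 (r 0.52, r 0.47, adjusted 0.00833). Against the Müller glia and astrocyte markers its rho was -0.61 (r -0.54, r -0.58 without the 2 farthest rats, adjusted permutation p of rho = 0.00709). Against the rod markers Bnip3 had rho -0.59 (adjusted permutation p = 0.00833) and r -0.45, which by r was not past the limit (adjusted 0.0733), and r was -0.79 without T370M and T447M.

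Egln1 also followed the endothelial markers (rho 0.58, r 0.58, r 0.57 without the 2 farthest rats, adjusted permutation p of rho = 0.00986). Its relations were negative with the rod markers (rho -0.62, r -0.59, r -0.69, adjusted permutation p of rho = 0.00709) and with the Müller glia and astrocyte markers (rho -0.66, r -0.66, r -0.57, adjusted 0.00595). In contrast, Hif1a and Arnt passed with no marker list. Their rho with the endothelial markers was 0.10 for Hif1a (r 0.01) and 0.01 for Arnt (r 0.00), with adjusted permutation p of 0.873 and 0.963. Whether these relations differ between Epas1 and Hif1a was not tested. The values of a rat share a library and its scaling.

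Egln3 was the only member whose relation to depth passed. Its rho with log10 of the total counts was 0.64 (r 0.53, r 0.50 without T410F and T448M, adjusted permutation p of rho = 0.00595), and the part of depth in its 9 zeros was not tested. For Egln2 with the rod markers r was 0.49 (adjusted permutation p = 0.0461) but rho was 0.30 (adjusted 0.399), so that relation depended on the measure.

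**Figure D4:**
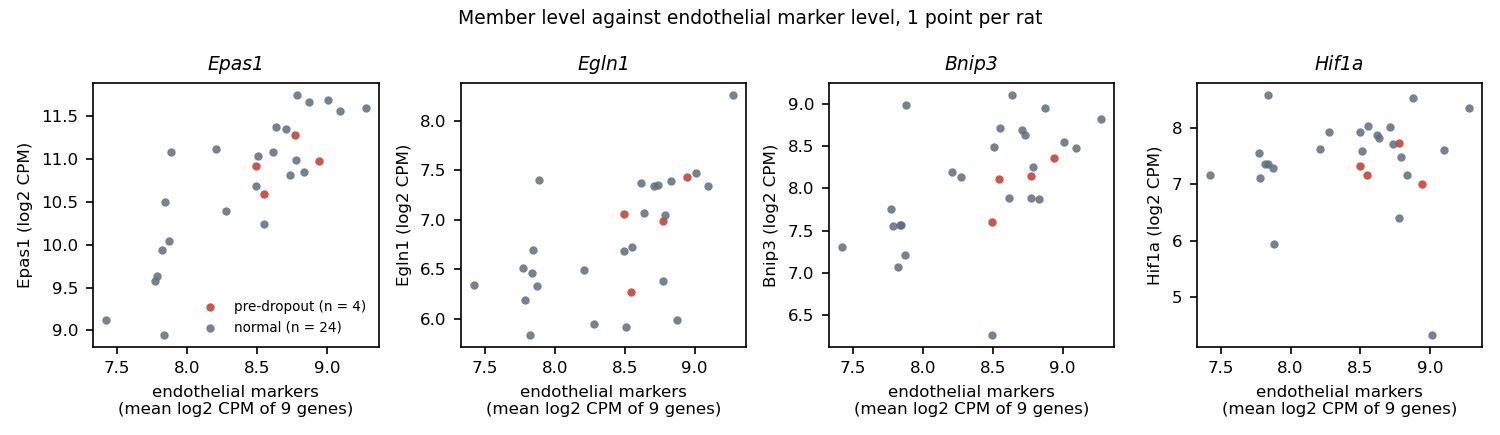
Log2 CPM of Epas1, Egln1, Bnip3 and Hif1a against the mean log2 CPM of 9 endothelial marker genes, with 1 point per rat, pre-dropout rats in red and normal rats in grey. Epas1 climbs with the endothelial markers (rho 0.79), Egln1 and Bnip3 less tightly (rho 0.58 and 0.62), and Hif1a does not (rho 0.10), with T420F far below the rest.

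Among 7859 genes with counts in at least 24 libraries, the 3 whose rank order over the 28 rats was closest to that of each member were listed as a description, with no test. For Epas1 they were Cd34 (rho 0.93), a sialomucin of endothelial surfaces, Rhoa (0.91), a small GTPase of the cytoskeleton, and Sh3glb1 (0.91). For Bnip3 they were Itm2a, Cnbp and Arpc5 (all 0.81), and for Egln1 Anxa1 (0.79), Rpl5 (0.77) and Gltscr2 (0.77). Lower values were found for Hif1a, with Armcx2 (0.74), Pdp1 (0.66) and Tmem170b (0.64), and for Arnt, with Zfp629 (0.69), Rps6kc1 (0.63) and Pym1 (0.62). Ddit4 was closest to Ggta1 (0.71), Tinagl1 (0.71) and Ppp2r5c (0.69), Egln2 to Psmd10 (0.71), Becn1 (0.68) and C3 (0.67), and Adm to Otulin (0.68), Nudt14 (0.65) and Kmt2e (0.65). The 3 closest genes of Epas1 had a higher rho than those of any other member ranked. Egln3 and Vhl were not ranked because they had counts in fewer than 24 libraries.

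The balance of the 2 oxygen-regulated subunits was read as the ratio of Epas1 to Hif1a in TPM. It was 7.01 to 10.3 in the pre-dropout rats (geometric mean 8.12), against 1.98 to 109 in the normal rats (geometric mean 6.29). The pre-dropout ratios lay close together and inside the normal range (log2 difference 0.37, two-sided exact permutation p = 0.482, and 0.55 with exact permutation p = 0.243 without T420F). Within males the log2 difference was 0.28 (exact permutation p = 0.562). Rats above 200 mg/dL had a geometric mean of 5.90 and the others 6.67 (exact permutation p = 0.838), and normal males one of 6.70 against 6.10 in normal females (exact permutation p = 0.774). None of these 5 comparisons was past 0.05 before adjustment.

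T420F, a normal female, set the top of this range. It had 4.18 TPM of Hif1a from 133 counts, the lowest Hif1a of the series, beside 455 TPM of Epas1, the second highest. The next ratio was 23.2 in T448M, 1 of the 2 small libraries. T420F had 6552944 counts but only 9426 genes with a count, and Vhl and Adm were at 0 in it.

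**Figure D5:**
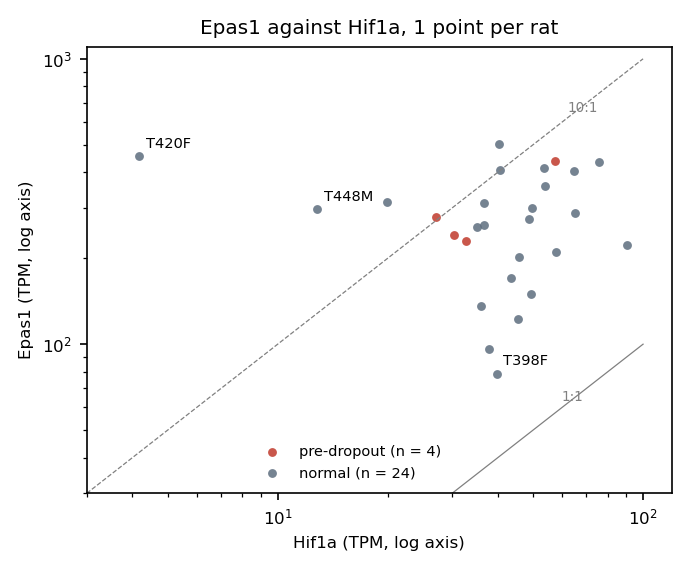
Epas1 against Hif1a in TPM on log axes, with 1 point per rat, pre-dropout rats in red, normal rats in grey, and lines at ratios of 1:1 and 10:1. All rats lie above the 1:1 line, the 4 pre-dropout rats lie near 10:1 (7.01 to 10.3), and T420F stands apart with a ratio of 109.

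The wider pathway gave no call either. Of 93 further listed genes, 91 were in the tables (Ankrd37 and Epo were not matched) and 86 were tested between pre-dropout and normal rats. Of these, 36 estimates were above 0, 50 below and 0 called by edgeR, DESeq2 or limma. Over all 13800 tested genes 5667 estimates were above 0 and 8133 below, a similar lean. Other regulators of the factors (14 tested) had 6 estimates above and 8 below 0, with a median log2 fold change of -0.04, which was 0.04 without T353M, 0.02 without T391M and 0.22 with sex as a covariate. Siah2, a ubiquitin ligase of the hydroxylases, was at 137, 27.9, 64.6 and 319 TPM in the pre-dropout rats, against 0 to 187 TPM (median 18.8) in normal rats. T407M lay above every normal rat, and the log2 fold change was 1.58 (SE 1.29, edgeR p = 0.228, adjusted 1). Tceb2, which encodes elongin B of the Vhl complex, had a log2 fold change of 0.68 (SE 0.70).

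The glucose transport and glycolysis targets had 2 estimates above and 16 below 0, with a median of -0.26 beside -0.13 over all genes. That gap depended on 2 rats: the list's median was -0.07 (all genes -0.11) without T353M and -0.14 (all genes -0.09) without T407M. The list's median was -0.16 (all genes -0.02) with sex as a covariate and -0.19 (all genes -0.05) within males. The part of sex was not tested. Slc2a3, a glucose transporter, was at 4.19, 9.18, 4.99 and 5.63 TPM in pre-dropout rats, against 0.452 to 32.0 TPM (median 13.6) in normal rats. All 4 lay below the normal median, with a log2 fold change of -1.10 (SE 0.71, adjusted p = 1). Ldha, the lactate dehydrogenase subunit that favours lactate, was at 174, 175, 198 and 109 TPM in pre-dropout rats, against 129 to 346 TPM (median 204) in normal rats, with a log2 fold change of -0.29 (SE 0.25). T407M was below all normal rats.

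Of the other targets 12 of 28 estimates were above 0 (median -0.06; between -0.14 and 0.05 when each pre-dropout rat was left out). Fam162a, a mitochondrial protein gene, had the smallest unadjusted p of the pathway lists (0.0170, adjusted 1, edgeR) and was the only 1 of the 86 genes under 0.05. It had no count in all 4 pre-dropout rats and 312 counts in 13 of the 24 normal rats. Against a limit of 3 counts over the pre-dropout group its pooled level was at least 13.1-fold lower there by counting error alone. That limit leaves out the spread among rats, so it does not bound a difference between the groups. In normal rats it had a mean of 9.67 TPM (SD 20.2), a median of 0.917 and a highest value of 91.8, and 11 normal rats also had none. Tfrc, the transferrin receptor, averaged 96.6 ± 33.5 TPM in pre-dropout rats (SD, n = 4) and 68.8 ± 30.2 TPM in normal rats (SD, n = 24), with a log2 fold change of 0.51 (SE 0.32, edgeR adjusted p = 1).

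The 4 tested genes of adrenomedullin reception had a median of 0.14, which was 0.01 without T389M, 0.32 without T391M, 0.0038 with sex as a covariate and -0.43 within males. Ramp1, a receptor-modifying protein, had counts in 4 libraries only and was at 0, 39.0, 20.04 and 0 TPM in pre-dropout rats and at 0 to 32.5 TPM (median 0) in normal rats. Ackr3, an atypical receptor that binds adrenomedullin, had a log2 fold change of 0.41 (SE 0.75). Around Ddit4, the mTORC1 list had 6 of 11 estimates above 0 with a median of 0.38, including Sesn1 (0.51, SE 0.50) and Tsc2 (0.38, SE 0.41), both known as brakes on mTORC1. This median depended on single rats, with 0.06 without T389M, -0.01 without T391M and 0.18 without T407M. It was 0.55 with sex as a covariate and 0.35 within males. Around Bnip3, the mitophagy list had 9 of 12 above 0 with a median of 0.14, including Gabarapl1 (0.21, SE 0.28) and Optn (0.52, SE 0.66). The mitophagy median was 0.0094 without T389M, 0.28 without T391M, 0.19 with sex as a covariate and 0.10 within males. With blood glucose 48 of 86 estimates were above 0 and none was called, beside 7231 of 13800 above 0 over all genes. Along density in normal rats 46 of 85 were above 0 and none was called, beside 7698 of 13677 over all genes.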

How the data were processed

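RNA of whole retinal vasculature from 28 Nile rats was sequenced with the LM-seq protocol, 1 library per rat. The deposited expected counts and the deposited TPM (transcripts per 1000000, scaled per library by the authors) carry mouse symbols and mouse Ensembl transcript identifiers. They were taken as the values of the authors' comparative pipeline, which needs no genome of the species. Its aligner and version are not given in the sources used here. The authors' later mapping to a genome of the species was not used here. The unit of glucose came from the study's methods.

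Groups followed the density in the labels. Expected counts were rounded and scaled by TMM, filtered (filterByExpr, minimum count 10) and tested by edgeR's quasi-likelihood F test (edgeR 4.0.16, R 4.3.3; Benjamini-Hochberg adjustment over all tested genes; no covariate for pre-dropout against normal and between the sexes, sex as covariate for the slopes). Calls required an adjusted p below 0.05 and, between groups, more than 2-fold. EBSeq, which the authors used, was not used here. The script was tested on simulated data. Alternatives were DESeq2 1.42.0, its size factors, limma 3.58.1 on log2(TPM + 1) and, between the density groups, log2(TPM + 0.1), no filter, other covariates or samples, and leaving out rats. Relations used log2 CPM with a prior count of 2 and 100000 permutations.

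The members and the gene lists were chosen with earlier results of these data known. Named were all 10 members, the 2 genes of each list with the smallest unadjusted p between pre-dropout and normal rats, the 3 genes closest in rank to each member, and Cldn5, Rgs5 and Sag as markers (Pecam1, the fourth, is not printed). Each library is 1 animal, and limits on zeros cover counting error only.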

Additional observations from a re-analysis of the deposited data

How the results depend on the processing

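No member was called in any comparison under any alternative, and none crossed the threshold. Directions of the small member estimates did change, in 20 of 130 values for pre-dropout against normal, 18 of 140 for glucose, 8 of 80 for density and 7 of 60 between the sexes. Counts over all genes moved more. Without the filter on low counts edgeR called 72 genes between pre-dropout and normal rats, 152 for glucose and 45 for density, against 0 with it, the unfiltered fits holding genes with very few counts. DESeq2 called 5, 22 and 37 genes for pre-dropout against normal, glucose and sex, limma on log2(TPM + 1) called 6 between the sexes against 3 with edgeR, and glucose in normal rats only gave 2. The cause of these differences was not tested.

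Between pre-dropout and normal rats Egln2 turned to a log2 change of -0.0271 with DESeq2 size factors, -0.0269 with DESeq2 and -0.0238 without the 2 libraries under 1000000 counts. Egln3 turned to 0.29 with limma on log2(TPM + 1) and 0.70 on log2(TPM + 0.1). With sex as a covariate Epas1, Arnt and Egln1 were at -0.25, -0.26 and -0.19, and in males only at -0.27, -0.27 and -0.21. Adm was at -0.0171 without rat T420F, an alternative chosen after seeing the data. Leaving out each pre-dropout rat in turn, the values ran between -0.0451 and 0.18 for Epas1, -0.0760 and 0.40 for Arnt, -0.10 and 0.29 for Egln1, -0.45 and 0.36 for Egln2, -0.26 and 0.0085 for Bnip3, -0.39 and 0.35 for Adm, and -0.0016 and 0.19 for Ddit4.

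For the glucose slope Hif1a turned to -0.00683 and Bnip3 to -0.00892 without the filter, and to -0.0135 and -0.00948 without T420F. Adm was at 0.11 with limma. With rats above 200 mg/dL set against the rest Epas1 was at -0.10, Bnip3 at -0.0762 and Adm at 0.18. Bnip3 was at -0.0249 in normal rats only, and without the small libraries Hif1a was at -0.0296 and Epas1 at -0.00423. Leaving out each rat above 200 mg/dL gave -0.0953 to 0.0634 for Hif1a, -0.0859 to 0.0242 for Epas1 and -0.0793 to 0.0278 for Bnip3.

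For the density slope Egln1 was at 0.0400 with DESeq2 size factors, 0.0369 with DESeq2, 0.00174 without the filter, 0.15 with limma, 0.0885 without the sex covariate, 0.15 without T398F and T370M, whose density is most distant from the median and 0.11 without T420F, and Egln3 was at -1.84 without T398F and T370M. Between the sexes Egln3 was at -0.25 with DESeq2 size factors and with DESeq2 and at -1.22 with limma, Bnip3 at -0.0418 with limma, Vhl at 0.21 and Adm at 0.0222 without the small libraries, and Ddit4 at 0.0064 without T420F. Here the median of all genes was -0.18 with DESeq2 size factors and -0.04 with TMM.

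The 1 pair of members past the limit and the 11 relations to markers or depth stayed 1 and 11 without the small libraries, and the count of pairs stayed 1 without T420F. No paired analysis was possible because every rat carries a number of its own. The 4 pre-dropout rats, all male, limit the comparison with normal rats and the 5 rats above 200 mg/dL the glucose slope, and the scarce members Egln2, Egln3, Vhl and Adm had the largest errors.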
